A study of Mus musculus with 2 samples.

Results

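The Mir302 and Mir367 cluster is a group of 5 microRNA hairpins, Mir302b, Mir302c, Mir302a, Mir302d and Mir367, that lie close together inside the gene Larp7. The rows of the 5 loci were taken from the count tables of embryonic mouse hindbrain by their Ensembl identifiers, and all 5 of the 1973 loci in the tables were found. Cerebellum, pons and medulla arise from this region of the brain. Small RNA under 30 nucleotides was sequenced from hindbrain of strain B6NCrl at embryonic day 14.5, in 1 group of 2 libraries, replicate 2 collected on 30 July 2014 and replicate 1 collected on 24 July 2014. No agent, mutation or second condition was part of the design, so the levels of the 5 loci and the difference between the libraries are described. The labels call each sample a single hindbrain in one place and pooled male and female in another, and give both the same donor. They also number the samples as biological replicates 2 and 1, each with technical replicate number 1, and the collection days differ. Whether the libraries come from separate animals is thus open. So n and SD describe only the spread between these libraries, which may be technical in part. The binomial p-values given below set the difference between the libraries against counting error only. They hold no estimate of the spread between samples.

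MicroRNAs are cut from hairpin transcripts and guide Argonaute proteins to messenger RNAs, mainly through the seed near their 5′ end. The miR-302 microRNAs are known from pluripotent cells of the early embryo, where they favour cell division by repressing cell cycle inhibitors, and in the mouse embryo they are made in the neuroepithelium before and during neural tube closure. Their levels are known to drop as progenitors differentiate. Mir302a to Mir302d make closely related products, while miR-367 belongs to the family of miR-25, miR-32, miR-92 and miR-363.

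The sequences below show that the listed 3′ products carry the seeds of 2 families, one of them in 2 registers, and that the 5′ products carry other seeds. They come from RefSeq (GRCm38.p6), which matched 5 of 5 hairpins, 5 of 5 products of the 5′ arm and 4 of 5 products of the 3′ arm of the members. The entry not matched was miR-302a-3p. Capitals mark the seed, bases 2 to 8, and all run 5′ to 3′ on the plus strand of chromosome 3.
miR-302b-3p: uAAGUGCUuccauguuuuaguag
miR-302d-3p: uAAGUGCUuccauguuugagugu
miR-302c-3p: aAGUGCUUccauguuucagugg
miR-367-3p: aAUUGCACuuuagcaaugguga
miR-302b-5p: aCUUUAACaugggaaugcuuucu
miR-302d-5p: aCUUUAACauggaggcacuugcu
miR-302c-5p: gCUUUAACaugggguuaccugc
miR-302a-5p: aCUUAAACgugguuguacuugc
miR-367-5p: aCUGUUGCuaacaugcaacuc

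The 3′ products of Mir302b and Mir302d shared the seed AAGUGCU and an unbroken run of 17 bases. The same 7 bases begin at base 1 of the listed miR-302c-3p and at base 2 of the other 2, so its seed by position, AGUGCUU, was found in 1 of the 1738 mature entries of the table. The 3 products shared a run of 16 bases. On the 5′ arm, miR-302b, miR-302c and miR-302d had the seed CUUUAAC, and miR-302a-5p had CUUAAAC, which no other mature entry had. The counts are per hairpin and do not separate the arms.

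The 5 hairpins fill 580 bases of chromosome 3 on the plus strand (GRCm38). Mir302b lies at 127545228 to 127545301, Mir302c at 127545363 to 127545430, Mir302a at 127545496 to 127545564, Mir302d at 127545624 to 127545689 and Mir367 at 127545733 to 127545807. Gaps of 61, 65, 59 and 43 bases separate them in that order. All 5 sit in intron 8 of the protein-coding transcript of Larp7, which encodes a protein that binds the 7SK RNA. Larp7 runs on the minus strand, so the hairpins are antisense to it, and Mir367 ends 18 bases from exon 8. The members had 0 counts on the strand of Larp7 in both libraries.

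Replicate 2 held 6667238 counts on microRNA loci and replicate 1 held 5826676, and, since PCR copies were not told apart by molecular identifiers, intervals and limits given here cover counting error only. Loci that reached 10 counts in both libraries, 401 in all, were called detected. Of 6 listed microRNAs of the Hox clusters, which are active in hindbrain and spinal cord, 5 were detected. Mir10a was the highest, at 84327 CPM in replicate 2 and at 108473 CPM in replicate 1. Mir196b stood at 38.4 and 35.0 CPM in those libraries, and Mir196a-1, not detected, had 0 counts and 1 count. Without another tissue to compare, these levels do not tell hindbrain from spinal cord. CPM gives the count at a locus relative to 1000000 counts summed over all microRNA loci.

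Reads that map to several positions were not assigned to loci in the tables, so shared sequence bears on these counts. Mir302a and Mir302b shared a run of 20 bases, and reads that lie wholly within it could not be placed, which makes their levels and order uncertain. The longest run that Mir302d shared with another hairpin was 17 bases and that of Mir302c was 16. Mir367 shared at most 11 bases with any other hairpin of the RefSeq table, and its 3′ product shared 5 bases with miR-302b-3p and 3 bases with miR-302c-3p and miR-302d-3p. Copies elsewhere in the genome were not searched.

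Together the cluster had 943 CPM in replicate 2 (6286 counts, 95% Clopper-Pearson interval 920 to 966) and 1014 CPM in replicate 1 (5911 counts, 989 to 1041). The mean was 979 ± 50.7 CPM (SD, n = 2), or 0.0943% of microRNA counts in replicate 2 and 0.101% in replicate 1. In this bulk tissue, few cells with high levels and many cells with low levels cannot be told apart. Small RNA libraries also capture some sequences better than others, a bias that was not measured and that enters each comparison between loci.

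Mir302a was the highest member, with 356 CPM in replicate 2 (2376 counts) and 380 CPM in replicate 1 (2216 counts). Mir302d followed with 305 CPM in replicate 2 (2031 counts) and 328 CPM in replicate 1 (1912 counts). Mir302b had 237 CPM in replicate 2 (1581 counts) and 259 CPM in replicate 1 (1508 counts). These 3 loci lay within 1 order of magnitude of each other, and the libraries gave the same order without overlap between neighbours.

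Mir302c was far lower, with 44.7 CPM in replicate 2 (298 counts) and 47.2 CPM in replicate 1 (275 counts). Mir367 had 0 counts in replicate 2 and 0 counts in replicate 1, which allows up to 0.450 CPM and 0.515 CPM in those libraries (3 counts each). Of the 5 members 4 were therefore detected, and the locus at the end of the cluster was not. Position did not order the levels: the lowest detected member lies between the locus that ranked next above it and the highest one.

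**Figure D1:**
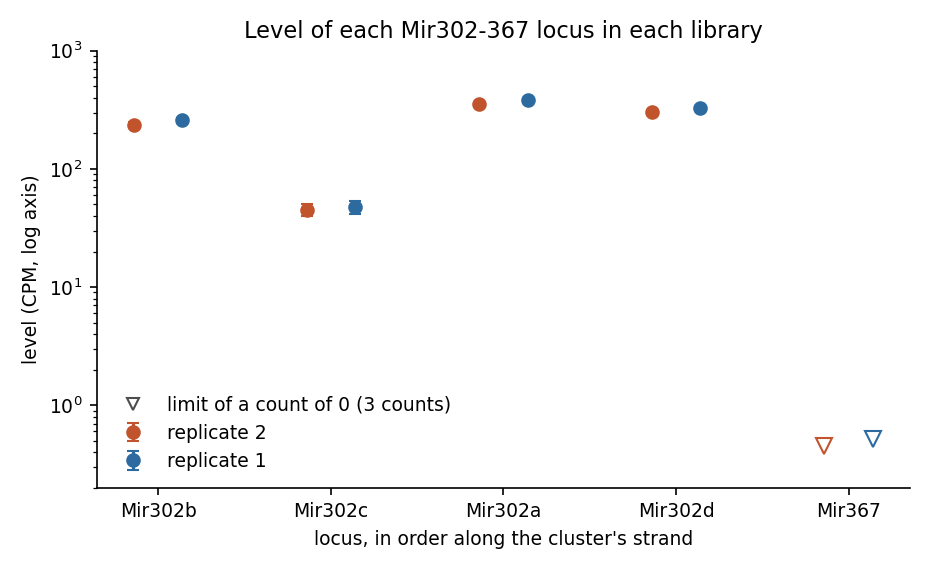
Level of the 5 loci in CPM on a log axis, in order along their strand, with replicate 2 left of replicate 1. Points have 95% Clopper-Pearson intervals, and open triangles mark the limit that a count of 0 allows (3 counts). Mir302a, Mir302d and Mir302b lie between 237 and 380 CPM, Mir302c near 45.9 CPM and Mir367 at 0 counts.

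Within each library the steps between neighbours in this order exceeded counting error. Mir302a was 1.17-fold above Mir302d in replicate 2 (interval 1.10 to 1.24) and 1.16-fold in replicate 1 (1.09 to 1.23). Mir302d was 1.28-fold above Mir302b in replicate 2 (1.20 to 1.37) and 1.27-fold in replicate 1 (1.18 to 1.36). Mir302b was 5.31-fold above Mir302c in replicate 2 (4.68 to 6.02) and 5.48-fold in replicate 1 (4.82 to 6.26). Mir302a was at least 792-fold higher than Mir367 in replicate 2 and at least 739-fold higher in replicate 1, with Mir367 set at the limit of 3 counts per library. Even Mir302c was at least 99.3-fold higher than Mir367 in replicate 2 and at least 91.7-fold higher in replicate 1 by the same limit. These folds over Mir367 take the counts of Mir302a and Mir302c as observed, without their intervals.

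The makeup of the cluster was close in the libraries. Mir302a held 37.8% of the cluster's counts in replicate 2 (interval 36.6 to 39.0) and 37.5% in replicate 1 (36.3 to 38.7). Mir302d held 32.3% in both, Mir302b held 25.2% in replicate 2 and 25.5% in replicate 1, and Mir302c held 4.74% in replicate 2 and 4.65% in replicate 1. The largest shift was that of Mir302b, 0.361 percentage points lower in replicate 2, less than the counting interval of either share. Mir367 could hold at most 0.0477% in replicate 2 and 0.0508% in replicate 1.

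**Figure D2:**
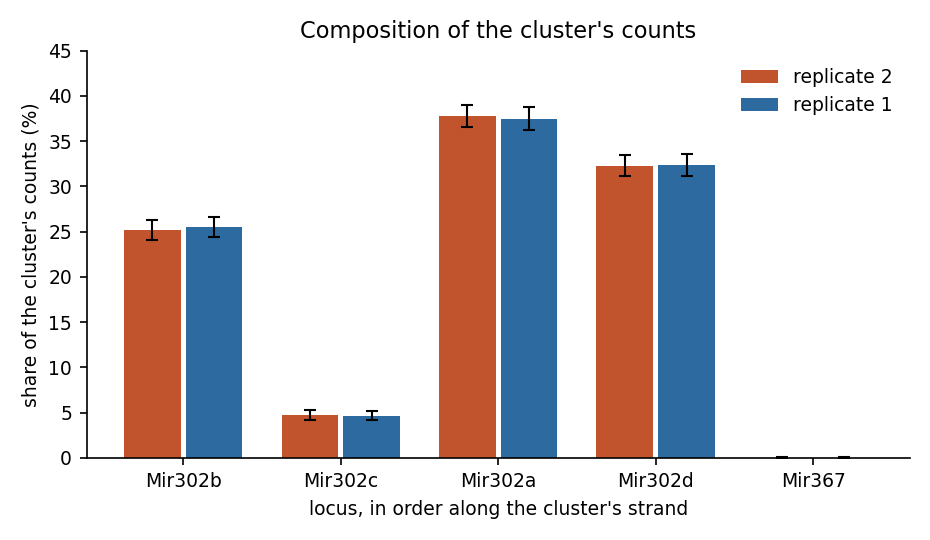
Share of each locus in the summed counts of the cluster, in percent, with replicate 2 left of replicate 1 and 95% Clopper-Pearson intervals (for Mir367, the limit of 3 counts). Mir302a and Mir302d hold the largest shares, 37.8% and 32.3% in replicate 2, and the bars of the libraries differ by less than their intervals.

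Among the 401 detected loci, ordered by mean CPM, Mir302a ranked 140, Mir302d 149, Mir302b 162 and Mir302c 248. The means were 368 ± 16.9, 316 ± 16.6, 248 ± 15.3 and 45.9 ± 1.77 CPM in that order (SD, n = 2). The locus nearest in level outside the cluster, by the Euclidean distance of log2(CPM + 1) over 2 libraries among 397 detected loci, was Mir669o for Mir302a (distance 0.036) and Mir669l for Mir302d (0.034). It was Mir3102 for Mir302c (0.030) and Mir135a-1 for Mir302b (0.14). With 2 libraries of 1 group, this likeness rests on the level and on 1 ratio. Whether reads that map to several positions were lost at these nearest loci was not checked.

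The hairpins were 66 to 75 bases long, and their GC content was 39.2% in Mir302b, 47.1% in Mir302c, 42.0% in Mir302a, 39.4% in Mir302d and 42.7% in Mir367, each below the median of 51.7% of 1005 RefSeq hairpins. The folding energy that RNAfold predicted was -34.5 kcal/mol for Mir367 and -31.7 kcal/mol for Mir302a, the lowest 2 of the 5, so the undetected locus and the highest one had nearly the same energy per base (-0.46). Mir302b had the weakest, -23.3 kcal/mol.

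The other pluripotency cluster of the mouse, that of Mir290a to Mir295, is known from embryonic stem cells and the germ line and encodes 3 products with the seed of miR-302b-3p and miR-302d-3p. They are shown for comparison, on the plus strand of chromosome 7 (RefSeq, GRCm38.p6), with the seed in capitals.
miR-291a-3p: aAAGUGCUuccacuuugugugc
miR-294-3p: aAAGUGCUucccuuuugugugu
miR-295-3p: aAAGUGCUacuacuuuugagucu

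The Mir302 cluster had 45.2-fold the summed counts of the 7 loci of the Mir290 cluster in replicate 2 (interval 38.2 to 53.9) and 41.0-fold in replicate 1 (34.8 to 48.8). The sums were 943 against 20.8 CPM in replicate 2 and 1014 against 24.7 CPM in replicate 1. Mir294 had 63 counts in replicate 2 and 44 counts in replicate 1, Mir293 had 44 and 60 counts in the same order of libraries, and Mir292 had 17 and 30 counts. The other 4 loci, Mir290a, Mir291a, Mir291b and Mir295, had at most 7 counts in a library. Of the 7 loci 3 were detected. The 6 hairpins of this cluster found in RefSeq shared at most 13 bases with any other listed hairpin, and that of Mir291a was not matched.

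Counted by the seed AAGUGCU, Mir302b and Mir302d held 98.1% of the counts of the 5 listed loci in replicate 2 (3612 of 3683 counts, interval 97.6 to 98.5) and 98.6% in replicate 1 (3420 of 3469 counts, 98.1 to 99.0). The remaining counts were nearly all those of Mir294. Counts of both arms enter, so these are shares of loci and not of products that carry the seed. Mir302a, the highest member, is not counted in this family because miR-302a-3p was not matched, nor is Mir302c, whose listed 3′ product has the seed in another register.

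The seed of miR-367-3p, AUUGCAC, is carried by 7 loci, and the sequences of the other 6 loci are shown because all had counts while Mir367 had 0 (RefSeq, GRCm38.p6, seed in capitals). Mir92-1 on chromosome 14 and Mir92-2 on chromosome X make the same miR-92a-3p, Mir92b lies on chromosome 3, Mir363 on chromosome X, Mir25 on chromosome 5 and Mir32 on chromosome 4.
miR-92b-3p: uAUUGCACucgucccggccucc
miR-92a-3p: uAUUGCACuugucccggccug
miR-363-3p: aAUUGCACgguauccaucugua
miR-25-3p: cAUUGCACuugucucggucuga
miR-32-5p: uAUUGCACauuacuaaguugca

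Mir367 held 0 of 27567 counts of this family in replicate 2 and 0 of 25289 in replicate 1, which allows a share of up to 0.0109% and 0.0119%. Mir92b led the family with 2317 CPM in replicate 2, against 2483 CPM in replicate 1. Mir363, of the X-linked cluster that is paralogous to Mir17-92, had 381 CPM in replicate 2, against 446 CPM in replicate 1, and Mir25 had 340 and 376 CPM in those libraries. Mir32 had 219 CPM in replicate 2, against 180 CPM in replicate 1. The levels of Mir92-1 and Mir92-2 are uncertain because they share their product, and were 834 and 43.2 CPM in replicate 2 and 807 and 48.2 CPM in replicate 1. The family as a whole had 4135 CPM in replicate 2, against 4340 CPM in replicate 1, with counts of both arms of each hairpin included.

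**Figure D3:**
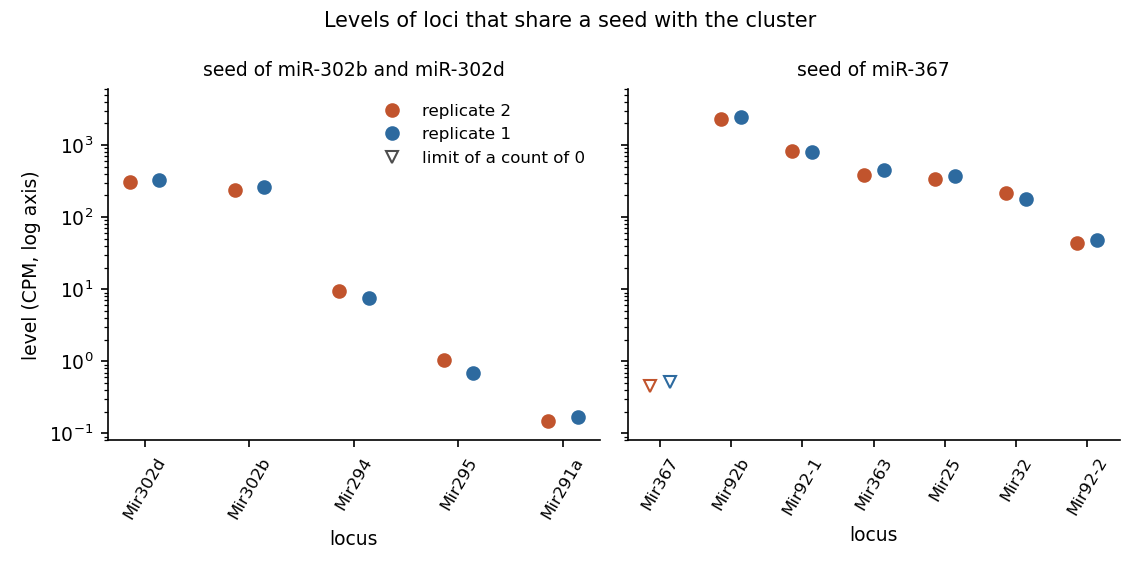
Level in CPM (log axis) of loci with the seed of miR-302b-3p and miR-302d-3p (left) and of miR-367-3p (right), with the loci of the Mir302 cluster placed leftmost (Mir302a and Mir302c are not plotted) and replicate 2 left of replicate 1. On the left the cluster's loci lie above the others, at 237 to 328 CPM, and on the right Mir367 is at the limit of a count of 0 (open triangles) while the other 6 loci lie between 43.2 and 2483 CPM.

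The miR-17 family, active in proliferating cells, is related to miR-302. In its member miR-17-5p, shown on the plus strand of chromosome 14 with its own seed in capitals (RefSeq, GRCm38.p6), the 7 bases of the miR-302 seed begin at base 3.
miR-17-5p: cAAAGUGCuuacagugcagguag

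The Mir302 cluster was set beside the 3 clusters that hold the miR-17 family and the miR-367 relatives Mir25, Mir363, Mir92-1 and Mir92-2. The relatives Mir92b and Mir32 lie outside these clusters. It had 943 CPM in replicate 2, against 22872 CPM of Mir17-92, 12435 CPM of Mir106b-25 and 819 CPM of Mir106a-363. In replicate 1 it had 1014 CPM, against 26382, 13878 and 1067 CPM of those clusters in the same order. The Mir302 cluster was thus 1.15-fold the level of Mir106a-363 in replicate 2 and 0.951-fold in replicate 1, so the libraries differed on which of those clusters was higher.

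Levels were also unequal within the other clusters. The highest detected locus exceeded the lowest detected one 7.97-fold in replicate 2 and 8.06-fold in replicate 1 within Mir302. The same ratio was 1900-fold and 2162-fold in Mir17-92, 149-fold and 236-fold in Mir106a-363 and 19.0-fold and 18.0-fold in Mir106b-25, replicate 2 given before replicate 1. It was smaller in the Mir290 cluster, 3.71-fold in replicate 2 and 2.00-fold in replicate 1 over 3 detected loci. The lowest loci of Mir17-92 and Mir106a-363 were Mir19b-1 and Mir19b-2, copies that make a common product, so those ratios are uncertain. All loci of Mir17-92, Mir106b-25 and Mir106a-363 were detected, while Mir367 was at 0.

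**Figure D4:**
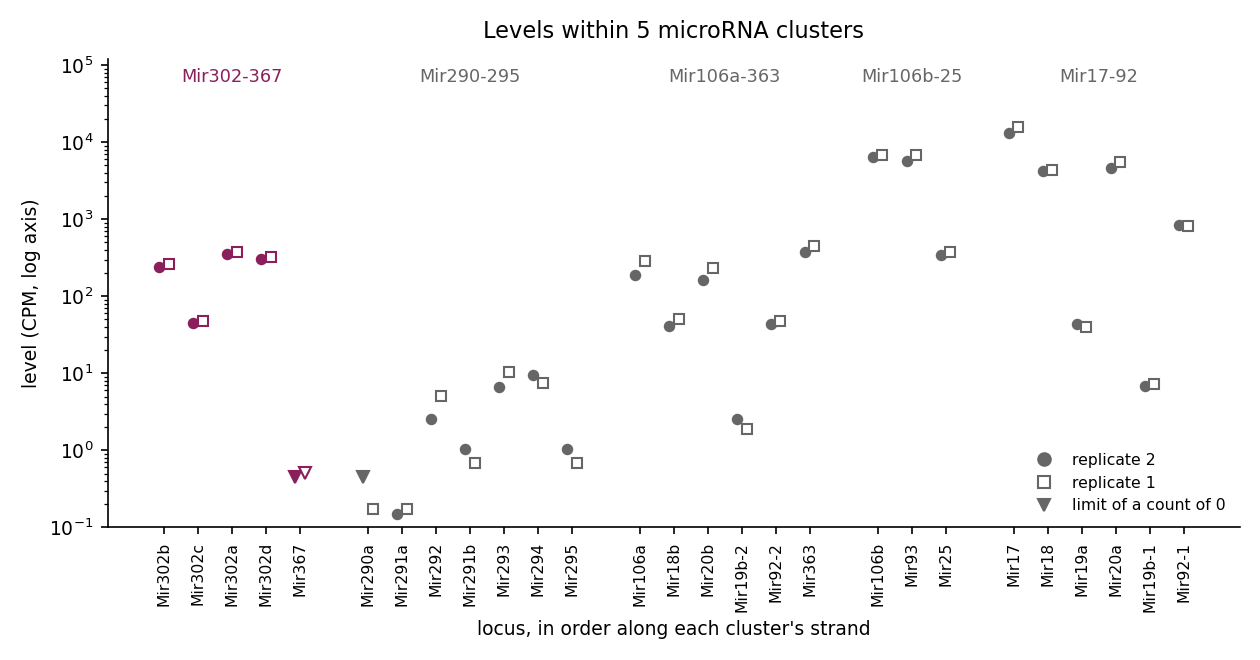
Level in CPM (log axis) of the loci of 5 microRNA clusters, in order along each cluster's strand, with Mir302 in purple. Filled circles are replicate 2, open squares replicate 1, and triangles the limit of a count of 0. The loci of the clusters overlap in level: Mir302a, at 356 CPM in replicate 2, lies above Mir19a of Mir17-92 (43.2 CPM) and near Mir25 of Mir106b-25 (340 CPM). In replicate 1 Mir302a and Mir25 are at 380 and 376 CPM. Mir367 has 0 counts in both libraries.

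The libraries were compared locus by locus with an exact two-sided binomial test on counts scaled by TMM, and p-values were adjusted by Benjamini-Hochberg over all 498 loci that had 10 or more counts in total. Mir302a, Mir302b and Mir302d were lower in replicate 2 beyond counting error, Mir302c did not pass, and Mir367 had no counts to test. The log2 ratio of replicate 2 over replicate 1 was -0.17 for Mir302b (interval -0.27 to -0.07, exact binomial test, adjusted p = 0.00464) and -0.15 for Mir302d (-0.24 to -0.06, adjusted p = 0.00451). It was -0.14 for Mir302a (-0.22 to -0.05, exact binomial test, adjusted p = 0.00517) and -0.12 for Mir302c (-0.36 to 0.12, adjusted p = 0.523).

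Of the 4 tested members 3 were called, all lower, against 32.5% of the 498 loci in either direction and 15.1% lower in replicate 2. The median log2 ratio of the 4 was -0.14, beside 0.01 over all tested loci, and the SD of the log2 ratio was 0.22 among the 282 loci that reached 100 counts in both libraries. The differences of the members are thus smaller than that SD. With library totals in place of TMM, the calls of Mir302a (exact binomial test, adjusted p = 0.0795) and Mir302d (adjusted p = 0.0560) were lost. With edgeR's exact test, 1.41% of loci were called, 0 of the 4 members passed and 0 had an unadjusted p under 0.05. The dispersion of that test (coefficient of variation 10.8%) was estimated from the same 2 libraries that it compared, so few calls were built in and it does not bear on whether the calls hold.

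**Figure D5:**
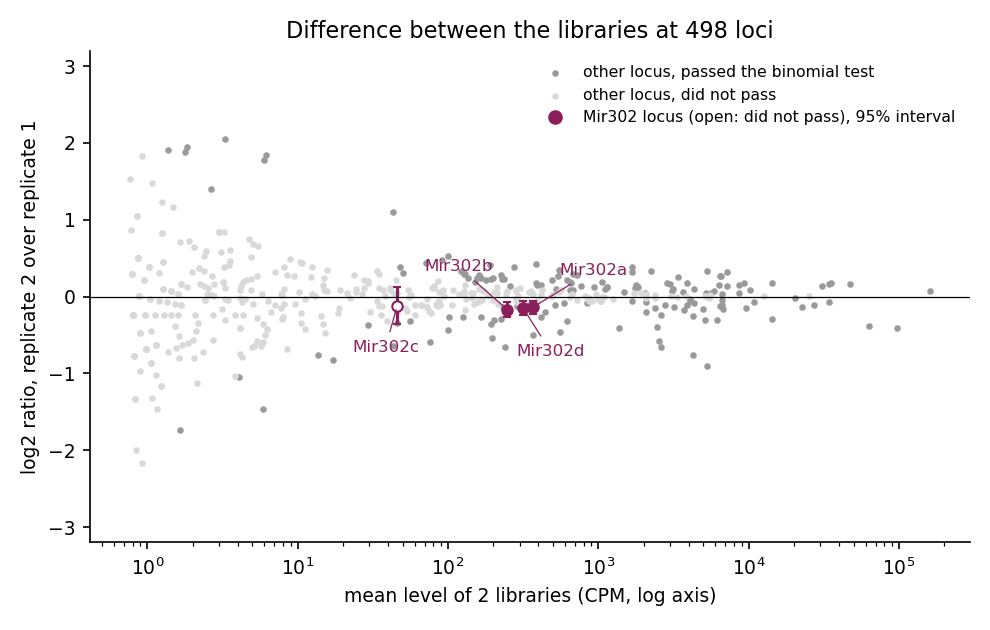
Log2 ratio of replicate 2 over replicate 1 against the mean level of 498 loci (CPM, log axis). Purple points with 95% intervals are the Mir302 loci, dark grey points other loci that passed the binomial test and light grey points those that did not. The 4 Mir302 loci lie just below 0, between -0.17 and -0.12, within the spread of the other loci.

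The 4 ratios spanned 0.05 on the log2 scale, less than the counting interval of any of them. Among loci that reached 100 counts in both libraries, the span of log2 ratios was 0.39 over 5 loci of Mir17-92, 0.20 over 3 loci of Mir106b-25 and 0.46 over 5 loci of Mir106a-363. The members of each of those clusters deviated from one another more than the Mir302 loci did, a difference that was not tested.

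Other lists also held loci called between the libraries, and their part in the difference of the Mir302 loci was not tested. Over all 498 tested loci, 15.1% were lower and 17.5% were higher in replicate 2, the shares to set beside each count below. In the exact binomial test, 0 of 5 tested loci of the Mir290 cluster passed, and edgeR's exact test called 0. The 2 with an unadjusted p under 0.05, Mir292 (log2 ratio -1.04) and Mir293 (-0.68), were the ones with lower values in replicate 2. The median of the 5 was 0.28, with Mir291b and Mir295 at 7 counts in replicate 2, against 4 counts in replicate 1. Of the miR-17 related clusters, 3 of 6 loci of Mir17-92, 3 of 3 of Mir106b-25 and 4 of 6 of Mir106a-363 were lower in replicate 2, and 0 were higher. Their median log2 ratios were -0.10, -0.19 and -0.31 in that order. Of the Hox list, 3 of 5 were lower and 0 higher (median -0.38), with a summed level of 142271 CPM in replicate 2, against 182095 CPM in replicate 1. Of the 9 tested neural microRNAs (the Mir9, Mir124a and Mir128 loci, Mir137 and Mir153), 4 were higher, against 17.5% of all tested loci, and 1 was lower in replicate 2 (median 0.09). Their summed level was 16761 CPM in replicate 2, against 14835 CPM in replicate 1. Mir137 alone held 70973 of the 111748 counts of the list in replicate 2. Mir9 and Mir124a are multi-copy, and reads that map to several copies were not assigned, so their levels and this sum are uncertain. Of 12 loci of epithelium and endoderm, where the Mir302 cluster is also known to be active early, 2 were lower and 0 higher (median 0.10). The lower count is near the 15.1% of all tested loci. Their summed level was 1518 CPM in replicate 2, against 1616 CPM in replicate 1.

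Of the other markers, Mir126a of endothelium was higher in replicate 2, with 36687 CPM there and 31783 CPM in replicate 1. Of 3 tested blood loci (Mir451a, Mir144 and Mir223), 2 were higher (median 0.38), against 17.5% of all tested loci. Their summed level was 582 CPM in replicate 2, against 455 CPM in replicate 1. Of 4 loci of smooth muscle and mesenchyme, 2 were higher and 1 lower (median 0.05), against 17.5% and 15.1% of all tested loci. Their summed level was 11669 CPM in replicate 2, against 10966 CPM in replicate 1. Collection day coincides with replicate, so day and replicate cannot be told apart.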

How the data were processed

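Small RNA under 30 nucleotides from hindbrain at embryonic day 14.5 was sequenced in 2 libraries. The deposited tables hold raw counts per microRNA locus, not normalized, for both strands and each strand. The file lists deposited with the tables name build mm10 and annotation M4, while the read aligner and the counter were not given in the sources used here. Of the strand columns the larger, holding 97.8% of locus counts in replicate 2 and 98.0% in replicate 1, was used. Rows of unassigned reads stayed out of library sizes: unmapped 15.9% and 13.8%, multimapping 34.3% and 33.9%, outside listed loci 3.31% and 2.99% (replicate 2, then replicate 1), and 0 ambiguous.

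Symbols and positions came from GENCODE M21 (same build), matched for 1894 of 1973 loci. Counts were scaled by TMM (factors 1.01 and 0.985) and log2 ratios added 0.5 to each count. A quasi-likelihood fit that gives each library its own arm has no residual degrees of freedom, so the exact binomial test, which compares 2 libraries and not conditions, was used, and called loci had an adjusted p under 0.05. The scripts were tested on simulated counts that varied by sampling noise only, so that test does not bear on false calls in these libraries. A chi-square of 146 per degree of freedom showed the libraries to differ by more than sampling noise. Named loci were the members, loci sharing their seeds, fixed lists and the nearest locus in level of each detected member. Members and lists were chosen with earlier results of these data known. Alternatives covered strand, denominator, scaling, filter, pseudocount, test and leaving out each replicate. Software was Python 3.11.15, scipy 1.17.1, pandas 2.3.3, R 4.3.3, edgeR 4.0.16, DESeq2 1.42.0 and RNAfold 2.7.2.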

Additional observations from a re-analysis of the deposited data

How the results depend on the processing

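Every one of the 32 log2 ratios of the 4 tested Mir302 loci under the alternatives stayed below 0, between -0.19 and -0.08. These ratios reuse the same counts at each locus and differ mainly in how the libraries were scaled. Their agreement was thus largely built in and says little about stability. The number of members called was 3 with DESeq2 size factors, upper quartile, no filter, a summed count of at least 100 and both strands. It was 1 with library totals (Mir302b, exact binomial test, adjusted p = 0.0453) and 0 with edgeR's exact test, where 7 of 498 loci were called in place of 162. The dispersion of the edgeR test came from the same 2 libraries, so few calls were built in. Calls split into 87 higher and 75 lower in replicate 2 with TMM and into 114 and 59 with library totals. The summed level of the cluster was 469 CPM when all reads were the denominator, 958 CPM with both strands, and 943 to 1014 CPM when either replicate was left out. The share of the cluster in the AAGUGCU family was 97.1% with loci free of a shared run of 20 bases (Mir291a, whose hairpin was not matched, and Mir302b left out), and 97.7% over all loci of the Mir302 and Mir290 clusters, an alternative added after the data were seen. Shares of the members say nothing about stability under these alternatives, since leaving out 1 of 2 replicates fixes the move and the members had 0 counts on the opposite strand. Leaving out a replicate gives no difference between libraries, so it was not run for the log2 ratios. A count of 0 limits Mir367 to about 0.5 CPM, by the limit of 3 counts, and does not show that it is absent.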
